A study of Homo sapiens with 12 samples.

Results

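The tumor necrosis factor (TNF) superfamily was followed through RNA sequencing of 2 triple negative breast cancer cell lines, Hs578T and MDA-MB-231, with and without the hyaluronan receptor CD44. Its members were taken by gene symbol: every gene named TNFSF or TNFRSF with a number, plus TNF, LTA, LTB, CD70, CD40LG, FASLG, CD27, CD40, FAS, LTBR, NGFR, EDAR, EDA2R and RELT. Of 58381 rows in the count table, 51 matched. They were 17 ligands, 29 receptors and 5 other rows, namely a read-through of TNFSF12 into TNFSF13 and 4 antisense or divergent transcripts at TNFRSF10A and TNFRSF14. The rule goes by names.

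There were 4 groups of 3 libraries each: Hs578T with CD44 (CD44 WT) or without it (CD44 KO), and MDA-MB-231 likewise. All 4 carried a lentiviral, doxycycline-inducible Cas9 under puromycin selection. The CD44 KO cells received guide RNAs against CD44 and were sorted as live CD29+ CD44- cells, so each is a sorted population and not a clone. The CD44 WT cells received the transfection reagent alone and were sorted as CD29+ CD44+, and all cells were held in low serum before RNA was taken. In each line, CD44 loss thus cannot be told apart from guide transfection, sorting or other differences between the sorted populations. Whether replicate libraries stem from independent cultures is not stated in the labels, so the p-values measure only the spread between these libraries, which may be technical. The labels place the column of 1 CD44 WT library of MDA-MB-231 under both replicate 2 and replicate 3, so this library was taken by its group and is given without a number.

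Ligands of the TNF superfamily are mostly membrane proteins that act as trimers and can be shed by proteases. Their receptors fall into those with a cytoplasmic death domain, such as FAS and TNFRSF1A, those that recruit TRAF adaptors without a death domain, such as CD40 and TNFRSF12A, and decoys that bind ligand without a full signalling tail. Downstream lie NF-kappaB, stress kinases and, for some death domain receptors, caspases. Many ligands are best known from leukocytes, whereas several receptors are common on epithelial and mesenchymal cells.

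The libraries held between 10257586 and 19725543 counts, and levels are given as CPM, each gene's count relative to its library's size after TMM scaling. The labels were checked with CD44 itself, which stood at 507 ± 17.6 CPM in Hs578T CD44 WT against 27.3 ± 2.06 CPM after its loss (mean ± SD, n = 3 each). The MDA-MB-231 values were 362 ± 1.70 and 34.2 ± 5.40 CPM. Of the lists of cell markers, the mesenchymal list (VIM, FN1, ZEB1, SNAI2, CDH2) summed to between 5100 and 10317 CPM over the 4 groups, and the epithelial list (EPCAM, CDH1, KRT8, KRT18, KRT19) to between 875 and 1482 CPM. In MDA-MB-231 the mesenchymal sum was 5100 to 5352 CPM in CD44 WT and 6650 to 7697 CPM in CD44 KO, without overlap. Most of it was VIM, at 4896 ± 178 against 6609 ± 566 CPM. In Hs578T the sums overlapped, at 8042 to 9207 against 8290 to 10317 CPM. VIM, an intermediate filament of mesenchymal cells, was called higher after CD44 loss in both lines (log2 fold change 0.38, adjusted p = 0.00386 in Hs578T and 0.43, adjusted p = 0.00253 in MDA-MB-231). FN1, ZEB1, SNAI2 and CDH2 were called in neither line. Their log2 fold changes were -0.0082, 0.44, 0.57 and -0.42 in MDA-MB-231 and -0.33, 0.21, 0.50 and 0.23 in Hs578T. Of the epithelial list, EPCAM and KRT19 were near 0 in Hs578T, at 0.0556 ± 0.0482 and 0.237 ± 0.0906 CPM in CD44 WT, against 17.6 ± 4.28 and 280 ± 19.6 CPM in CD44 WT MDA-MB-231, and the mean of CDH1 stayed under 1 CPM in all 4 groups. Of the leukocyte markers, PTPRC, the common leukocyte antigen, was called higher in CD44 KO Hs578T, at 3.78 ± 0.895 CPM against 0.369 ± 0.179 CPM in CD44 WT. CD3E, CD14 and LYZ did not pass the filter described below, and the mean of each stayed under 1 CPM in all 4 groups. The part of VIM and PTPRC in the changes below was not tested. Endothelial markers (PECAM1, CDH5, VWF) summed to between 1.69 and 15.5 CPM. In bulk RNA, fewer cells with a transcript and less transcript per cell cannot be told apart.

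A gene was tested where it exceeded 1 CPM in at least 2 of the 12 libraries, and its exons covered 300 nt or more, which left 15836 genes. Of the 46 ligands and receptors, 28 passed, 8 ligands and 20 receptors. Taken within a line, 7 ligands and 16 receptors exceeded 1 CPM in at least 2 libraries of Hs578T, and 4 ligands and 17 receptors did in MDA-MB-231.

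**Figure D1:**
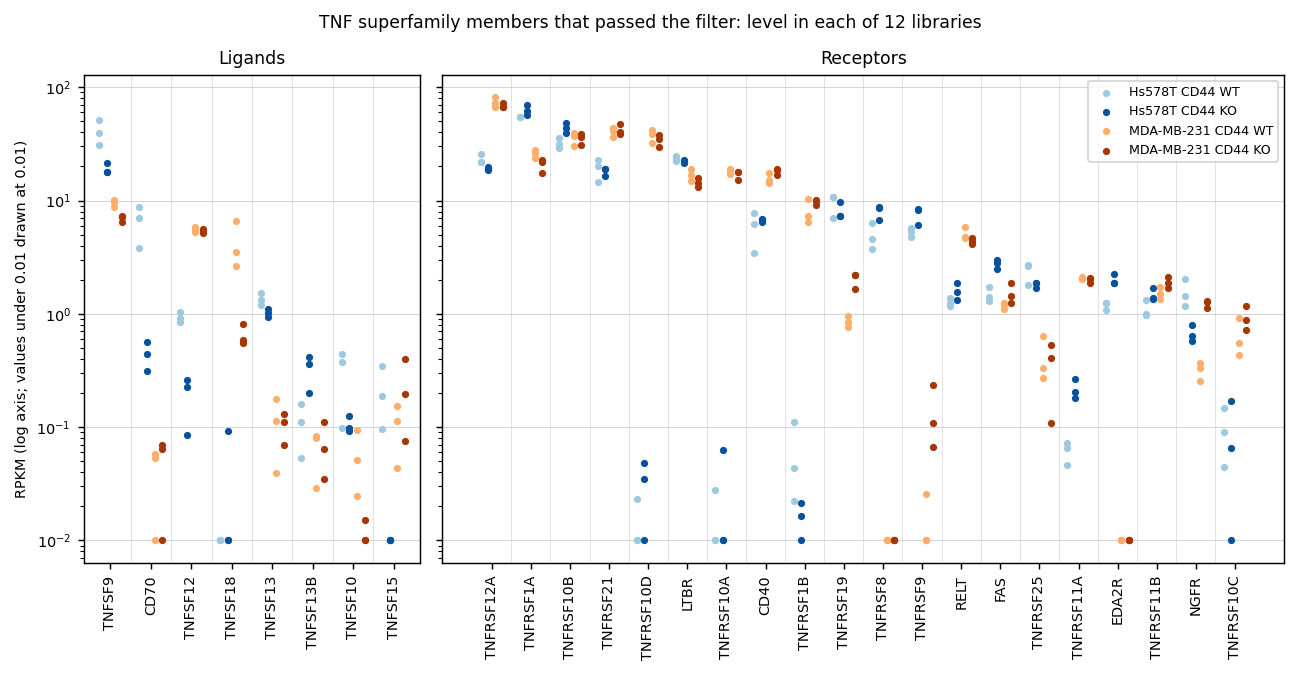
Level of each ligand (left) and receptor (right) that passed the filter, in RPKM (CPM divided by exon length in kilobases, log axis), with 1 point for each of the 12 libraries coloured by group. TNFSF9 is the highest ligand in Hs578T, at 40.4 RPKM in CD44 WT, and TNFRSF12A the highest receptor in MDA-MB-231, at 74.0 RPKM.

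The other 18 ligands and receptors did not pass the filter, and for 5 of them the table says little. TNF and the lymphotoxins LTA and LTB were at 0 in all 12 libraries, and TNFRSF14, the receptor of TNFSF14, had between 0 and 4 counts. Every 50-base word of the exons of these 4 genes also stands in an alternate contig of hg38, where a read has more than 1 place to align. Genes that all cells use were equally empty in the same stretch of chromosome 6: RPS18, a ribosomal protein gene, and FLOT1 and GNL1 had 0 counts, and TUBB, a tubulin gene, had 4 in all. These 4 also have every exonic word in an alternate contig. Within 2 Mb of TNF on either side (chr6:29575567-33578336), 266 of 332 rows (80.1%) were at 0 in every library. Whether the authors' alignment included alternate contigs is not given in the sources used here, so the zeros of TNF, LTA and LTB were not read as absence. The fifth, the soluble decoy TNFRSF6B, lies entirely within exons of a read-through with RTEL1, and a fragment inside 2 genes was assigned to neither.

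Of the other 13, TNFSF8, TNFSF11 (RANKL), CD40LG and CD27 had no count in any library, which allows a level of up to 0.0193 CPM over the 12 libraries and covers counting error only. The highest of the rest were TNFRSF13C, with 3 to 9 counts per library, and TNFSF4 (OX40L), with 1 to 11. FASLG, TNFSF14, TNFRSF4, TNFRSF13B, TNFRSF17, TNFRSF18 and EDAR had no more than 12 counts in all. For several ligand and receptor pairs only 1 partner was thus seen at more than a few counts: CD70 without CD27, TNFRSF11A without TNFSF11, TNFRSF8 without TNFSF8, CD40 without CD40LG, and TNFSF18 and FAS with 3 counts in all of TNFRSF18 and of FASLG.

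Promoters are shown of members called below, where RefSeq (GRCh38.p14) has an entry and the window from 250 to 31 bases before the start holds no annotated exon and lies outside the gene's own span in the count table. Of the 6 called members with an entry, this left out FAS, TNFRSF19 and TNFSF15. Those shown are TNFSF9 (chr19:6530776-6530995, + strand), TNFSF18 (chr1:173050972-173051191, - strand) and TNFRSF11A (chr18:62325060-62325279, + strand), given 5′ to 3′ in the direction of transcription.
TNFSF9: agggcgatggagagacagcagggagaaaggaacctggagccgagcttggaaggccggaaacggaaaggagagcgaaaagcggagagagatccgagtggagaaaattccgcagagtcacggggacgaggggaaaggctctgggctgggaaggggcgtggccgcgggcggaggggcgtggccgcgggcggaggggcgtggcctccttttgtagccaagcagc
TNFSF18: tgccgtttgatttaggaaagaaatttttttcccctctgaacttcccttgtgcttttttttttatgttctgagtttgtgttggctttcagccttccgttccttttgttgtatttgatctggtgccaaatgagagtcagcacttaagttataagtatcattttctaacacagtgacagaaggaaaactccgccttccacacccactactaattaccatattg
TNFRSF11A: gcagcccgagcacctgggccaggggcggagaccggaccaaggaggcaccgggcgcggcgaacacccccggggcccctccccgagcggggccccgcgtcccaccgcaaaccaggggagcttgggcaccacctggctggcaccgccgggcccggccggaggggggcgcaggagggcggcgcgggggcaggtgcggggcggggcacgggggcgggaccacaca
The letters searched on both strands, chosen after the values were seen, were GGG, any 3 bases and TTCC for NF-kappaB, and TGANTCA for AP-1. The 3 windows shown hold neither, whereas 2 of the called members left out, FAS and TNFSF15, have TGANTCA. Of the 28 tested members 18 had an entry. The NF-kappaB letters occurred in 1 of the 18, beside 4.82% of 27305 promoters, and TGANTCA in 3 (FAS, TNFRSF9 and TNFSF15), beside 6.03%. The promoter with the NF-kappaB letters was that of TNFRSF9, at chr1:7940894-7940922 on the - strand, where 2 overlapping matches in capitals begin 74 bases before the RefSeq start. Its window holds annotated exon bases and lies within the gene's own span, the grounds for leaving out windows above. Only the stretch around the matches is therefore given.
TNFRSF9: agctgtggtGGGAATTTCCCatgagaccc
A match is a description of letters and not a measured binding site, and CD70, NGFR and TNFSF12 have no entry.

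The first comparison asked which of these genes changed when CD44 was lost in Hs578T. Of the 8 ligands tested, 4 were called, that is had an adjusted p no higher than 0.01 (edgeR quasi-likelihood test, Benjamini-Hochberg over all genes tested), all 4 of them lower in CD44 KO: CD70, TNFSF9, TNFSF12 and TNFSF15. Over all genes, 3.86% were called lower and 3.64% higher, 7.51% in all. Of the 20 receptors, 3 were called, TNFRSF11A and FAS higher and NGFR lower. Among the 7 ligands expressed in the line the median log2 fold change was -1.52, with TNFSF15 at its bound, and among the 16 expressed receptors it was 0.27, beside -0.0016 over all genes. Of the 7 ligands, 4 exceeded the filter's level in CD44 WT libraries only, 3 of them called, 1 in CD44 KO libraries only and 2 in both. The ligand median is the value of TNFSF10, which was not called and exceeded that level in CD44 WT only. Among the called receptors, TNFRSF11A exceeded it in CD44 KO libraries only. These counts and medians thus partly follow from the filter, and the medians are not read as a shift of ligands against receptors.

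CD70, a ligand otherwise known from activated lymphocytes and dendritic cells, had 13.5, 10.7 and 5.84 CPM in CD44 WT replicates 1, 2 and 3 of Hs578T. In CD44 KO it had 0.481, 0.863 and 0.682 CPM. The lowest CD44 WT library thus lay well above the highest CD44 KO library. The log2 fold change was -3.85 (SE 0.36, adjusted p = 4.72e-06), the largest fall with a finite estimate among the members. The gene lies at chr19:6583183-6604103 on GRCh38.

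TNFSF9, the ligand of the costimulatory receptor TNFRSF9 (CD137), was the most abundant ligand of the line and lies close to CD70, at chr19:6530999-6535928. Its CD44 WT libraries held 84.8, 65.9 and 51.1 CPM, and its CD44 KO libraries 29.8, 35.9 and 29.9 CPM. The groups did not overlap, as was true of 37.3% of all genes, and the log2 fold change was -1.08 (SE 0.15, adjusted p = 1.71e-04). In CD44 WT, replicate 1 was the highest and replicate 3 the lowest library for CD70, TNFSF9 and TNFSF15 alike. The 214 tested genes within 5 Mb of CD70 on either side had a median log2 fold change of -0.17, with 16 called lower and 1 higher. Both ligands fell further than that median. Around the other members called in this line the median lay between -0.02 (148 genes at TNFSF12) and 0.09 (97 genes at NGFR).

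TNFSF12 (TWEAK), which signals through the receptor TNFRSF12A, had low levels in Hs578T, at 1.595, 1.73 and 1.95 CPM in CD44 WT and 0.160, 0.493 and 0.426 CPM in CD44 KO. All CD44 KO libraries lay below all CD44 WT libraries, with a log2 fold change of -2.21 (SE 0.31, adjusted p = 1.64e-04). Of its exonic bases, 29.4% are shared with the read-through into TNFSF13, where fragments go uncounted. TNFSF13 (APRIL), which shares 55.5% of its exons with the same read-through, was not called (log2 fold change -0.40, adjusted p = 0.346).

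TNFSF15 (TL1A), a ligand of the death domain receptor TNFRSF25, had 66 counts in the CD44 WT libraries of Hs578T and 0 in those of CD44 KO. Per library that was 2.70, 1.48 and 0.762 CPM against 0 in all 3, at least 23.2-fold lower with the floor at 3 counts over the group (adjusted p = 0.00245). The call was lost without CD44 KO replicate 2 (adjusted p = 0.0145), CD44 KO replicate 3 (0.0105) or CD44 WT replicate 1 (0.0132).

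The other ligands of Hs578T were not called. TNFSF10 (TRAIL), which triggers death through TNFRSF10A and TNFRSF10B, had 1.53, 1.32 and 0.339 CPM in CD44 WT and between 0.321 and 0.432 CPM in CD44 KO, so that the groups overlapped through replicate 3 of CD44 WT (log2 fold change -1.52, adjusted p = 0.0672). Without that library it was called (-1.92, adjusted p = 0.00585). TNFSF13B (BAFF), a survival factor of B cells, was the ligand with a positive estimate, from between 0.165 and 0.485 CPM to between 0.617 and 1.28 CPM (1.52, adjusted p = 0.0484). For TNFSF18 the libraries held 0 counts before CD44 loss and 3 after it.

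**Figure D2:**
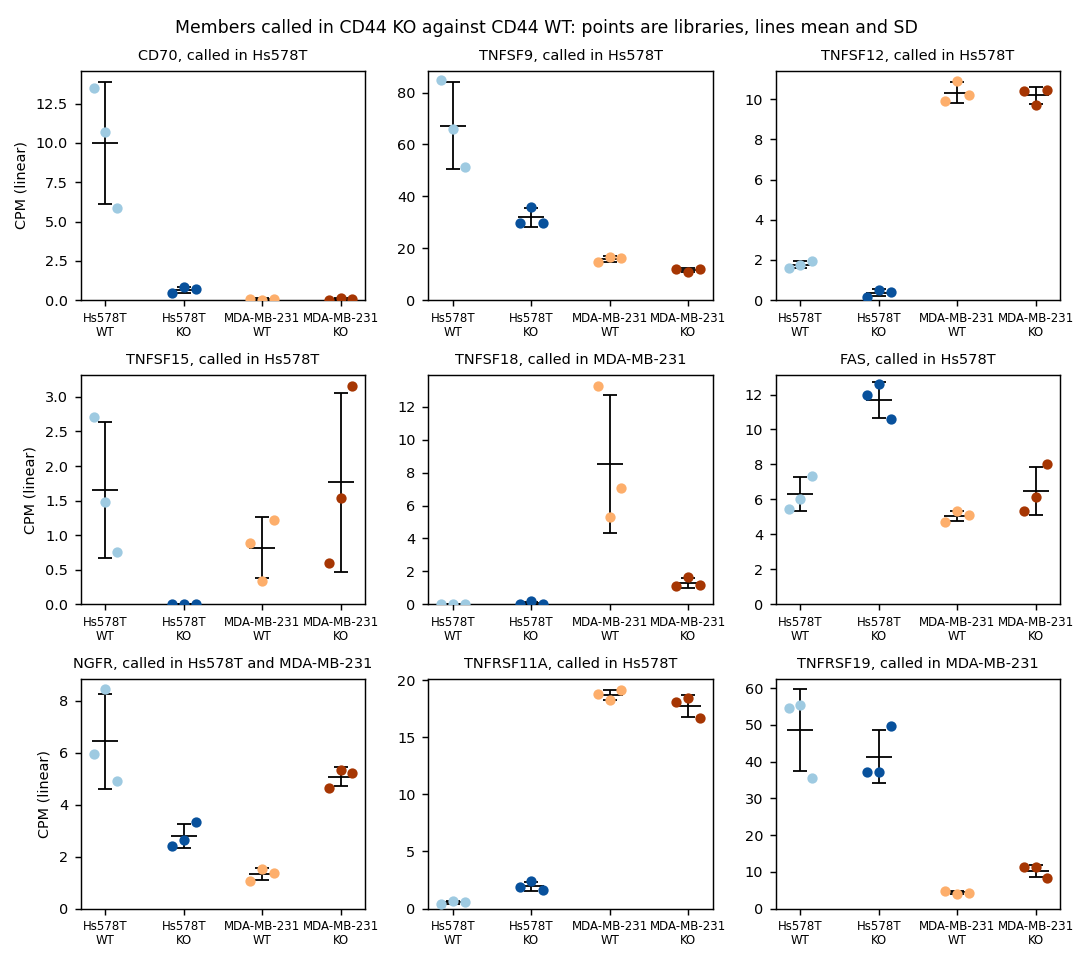
Level in CPM (linear axes from 0) of the 9 members called in CD44 KO against CD44 WT in either line, with points for libraries and black lines for the mean and SD of 3 libraries. CD70 drops from 10.0 to 0.676 CPM in Hs578T, and NGFR moves down in Hs578T and up in MDA-MB-231.

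Among the receptors of Hs578T, TNFRSF11A (RANK), the receptor of TNFSF11, had 0.416, 0.658 and 0.592 CPM in CD44 WT. It had 1.85, 2.40 and 1.62 CPM in CD44 KO, a log2 fold change of 1.84 (SE 0.26, adjusted p = 2.03e-04). All CD44 KO libraries were higher, at a level that stayed under that of MDA-MB-231, where no library was below 16.7 CPM. FAS, the death receptor for FASLG, had 5.48, 6.01 and 7.36 CPM in CD44 WT and 11.95, 12.6 and 10.6 CPM in CD44 KO. The groups were apart and FAS was called higher (log2 fold change 0.90, SE 0.17, adjusted p = 0.00225). Its call was lost without CD44 KO replicate 1 (adjusted p = 0.0108) or 2 (0.0156) or CD44 WT replicate 1 (0.0174) or 2 (0.0149), with a log2 fold change between 0.81 and 0.89.

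NGFR, the low affinity neurotrophin receptor with a death domain, went the other way in Hs578T. It had 5.96, 8.47 and 4.91 CPM in CD44 WT and 2.41, 2.65 and 3.33 CPM in CD44 KO (log2 fold change -1.21, SE 0.23, adjusted p = 0.00206). Without CD44 KO replicate 1 (adjusted p = 0.0141) or 2 (0.0151) or CD44 WT replicate 2 (0.0143) it was no longer called, though the libraries of the groups did not overlap.

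Of the receptors above 20 CPM in Hs578T none was called. TNFRSF1A, the main TNF receptor of most tissues, was the highest in CPM, with 220, 218 and 217 in CD44 WT and 249, 277 and 226 in CD44 KO (log2 fold change 0.20, SE 0.11, adjusted p = 0.245). TNFRSF10B (DR5), a death receptor for TNFSF10, had 149, 162 and 184 CPM in CD44 WT and 226, 251 and 202 CPM in CD44 KO. Its groups were apart but it stayed short of the threshold (0.45, SE 0.12, adjusted p = 0.0184). DESeq2 called it (adjusted p = 0.00607), as did the fit to Hs578T alone (0.00672).

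LTBR, the receptor of lymphotoxin, had 154, 149 and 141 CPM in CD44 WT and 143, 138 and 135 CPM in CD44 KO (log2 fold change -0.09, SE 0.10, adjusted p = 0.589). TNFRSF21 (DR6) had 81.7, 72.2 and 52.4 CPM against 59.4, 68.3 and 67.6 CPM (-0.08, SE 0.14, adjusted p = 0.771). Both overlapped between the groups. TNFRSF12A (Fn14), the receptor of TNFSF12, had 47.7, 40.1 and 40.1 CPM in CD44 WT and 34.8, 34.2 and 36.4 CPM in CD44 KO (-0.28, SE 0.10, adjusted p = 0.0797). Its groups were apart by a small margin.

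TNFRSF9, the receptor of TNFSF9, had 36.4, 33.1 and 30.4 CPM in CD44 WT and 51.9, 53.6 and 38.4 CPM in CD44 KO of Hs578T. All CD44 KO libraries were higher, without a call (log2 fold change 0.53, SE 0.18, adjusted p = 0.0632), while its ligand fell. TNFRSF8 (CD30) had 13.9, 17.3 and 23.5 CPM against 32.7, 25.0 and 32.3 CPM (0.72, SE 0.19, adjusted p = 0.0296), and was called without CD44 WT replicate 3 (adjusted p = 0.00550). TNFRSF19 (TROY) had 54.6, 55.4 and 35.6 CPM against 37.1, 37.2 and 49.6 CPM, with overlap (-0.24, SE 0.17, adjusted p = 0.402). CD40 overlapped as well, at 8.74, 15.7 and 19.8 CPM in CD44 WT and between 16.4 and 17.4 CPM in CD44 KO (0.21, SE 0.20, adjusted p = 0.561).

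The remaining receptors expressed in Hs578T, each under 12 CPM, were EDA2R (log2 fold change 0.75, adjusted p = 0.0293), the decoy TNFRSF11B or osteoprotegerin (0.45, adjusted p = 0.161), RELT (0.33, adjusted p = 0.172) and TNFRSF25 (-0.39, adjusted p = 0.422). None of the 4 was called. TNFRSF10A, TNFRSF10C, TNFRSF10D and TNFRSF1B, the other TNF receptor, did not exceed 0.416 CPM in any Hs578T library. Of the death receptors for TNFSF10, TNFRSF10B was thus abundant in this line while TNFRSF10A had 4 counts in 6 libraries. The CD44 WT library nearest to the mean of the CD44 KO libraries was replicate 3 for 11 of the 17 ligands and receptors whose groups did not overlap, against 46.4% of all such genes.

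**Figure D3:**
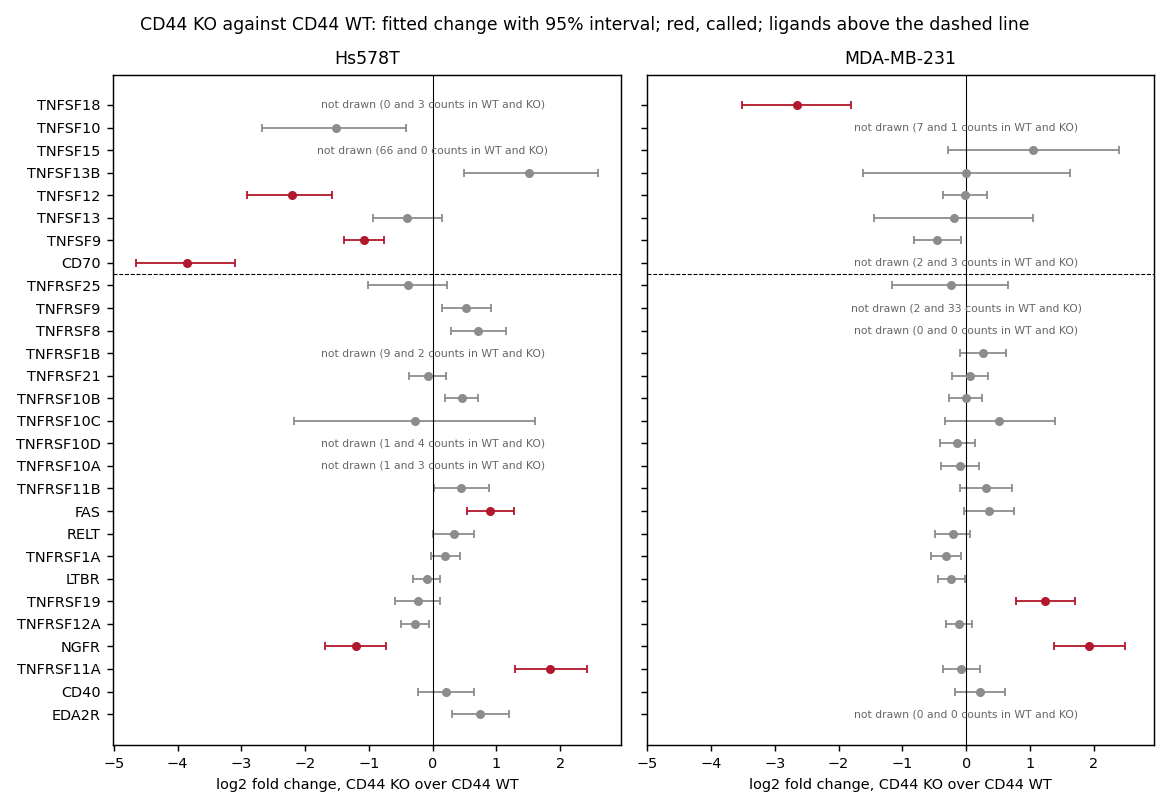
Fitted log2 fold change after CD44 loss, with its 95% interval, for each ligand (above the dashed line) and receptor in Hs578T (left) and MDA-MB-231 (right), red where called; genes with 3 counts or fewer in a group are not drawn. The red points are CD70, TNFSF9, TNFSF12, FAS, NGFR and TNFRSF11A on the left and TNFSF18, NGFR and TNFRSF19 on the right.

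In MDA-MB-231, of 8 ligands 1, TNFSF18, was called lower and 2 of 20 receptors, NGFR and TNFRSF19, were called higher, where 2.65% of all genes were called lower and 1.97% higher, 4.62% in all. The 4 ligands expressed in this line had a median log2 fold change of -0.24 and the 17 receptors one of -0.0054, beside -0.0096 over all genes.

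TNFSF18 (GITRL), known as a costimulatory ligand of T cells, had 5.31, 7.06 and 13.3 CPM in CD44 WT replicates 1 and 3 and the library without a number. Values of this line are given in that order. In CD44 KO replicates 1, 2 and 3 it had 1.10, 1.64 and 1.19 CPM. The lowest CD44 WT library was above all CD44 KO libraries (log2 fold change -2.66, SE 0.40, adjusted p = 8.30e-04), and the call held whichever library was left out. Around it, at chr1:173039960-173050963, the 45 tested genes within 5 Mb had a median log2 fold change of -0.02. Those around NGFR and TNFRSF19 had medians of -0.07 and 0.

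NGFR, lower in CD44 KO Hs578T, was higher in CD44 KO MDA-MB-231. It had 1.54, 1.38 and 1.07 CPM in CD44 WT and 4.66, 5.35 and 5.23 CPM in CD44 KO (log2 fold change 1.93, SE 0.26, adjusted p = 2.34e-04). The call held without any 1 library. TNFRSF19, a receptor best known from embryonic tissues, had 3.94, 4.30 and 4.90 CPM against 11.2, 11.2 and 8.39 CPM (1.24, SE 0.22, adjusted p = 0.00190). All 3 CD44 KO libraries were higher, but the call was lost without CD44 KO replicate 2 (adjusted p = 0.0131) or CD44 WT replicate 1 (0.0108) or 3 (0.0109).

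TNFRSF9 was scarce in MDA-MB-231, with 2 counts in the 3 CD44 WT libraries and 33 in those of CD44 KO, a ratio of 14.2 with a 95% counting interval of 3.64 to 122. The CD44 KO libraries held 0.424, 0.689 and 1.48 CPM. At an adjusted p of 0.0101 it stood just outside the threshold, and DESeq2 called it. Its ligand TNFSF9 had 16.7, 16.3 and 14.5 CPM in CD44 WT and 11.9, 10.9 and 12.1 CPM in CD44 KO, apart, as 25.5% of all genes were, but not called (log2 fold change -0.45, SE 0.17, adjusted p = 0.118).

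The other ligands of MDA-MB-231 were TNFSF12, with between 9.69 and 10.9 CPM in all 6 libraries (log2 fold change -0.02, adjusted p = 0.990), and TNFSF15, with 0.343, 1.22 and 0.891 CPM in CD44 WT and 0.593, 1.54 and 3.16 CPM in CD44 KO (1.05, adjusted p = 0.334). CD70, TNFSF10, TNFSF13 and TNFSF13B did not exceed 0.406 CPM in any library of the line. CD70, called lower in Hs578T, had 5 counts in the 6 libraries here, too few to compare.

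Receptors above 20 CPM in MDA-MB-231 were 10, and none was called. TNFRSF10B had 157, 190 and 202 CPM in CD44 WT and 159, 189 and 199 CPM in CD44 KO (log2 fold change -0.0054, SE 0.12, 95% interval -0.26 to 0.25). TNFRSF21 had 131, 158 and 147 CPM against 170, 140 and 145 CPM (0.06, SE 0.13, adjusted p = 0.863). TNFRSF12A had 152, 133 and 124 CPM against 135, 124 and 123 CPM (-0.10, SE 0.10, adjusted p = 0.557). All 3 overlapped between the groups.

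The decoy TNFRSF10D had 113, 137 and 148 CPM in CD44 WT and 104, 134 and 123 CPM in CD44 KO (log2 fold change -0.14, SE 0.13, adjusted p = 0.571). TNFRSF10A (DR4), which shares the ligand TNFSF10, had 50.6, 54.3 and 56.5 CPM against 44.7, 53.0 and 53.0 CPM (-0.10, SE 0.14, adjusted p = 0.744). For TNFRSF10A, TNFRSF10B and TNFRSF10D, all of which bind TNFSF10, the 95% intervals of the log2 fold change lay between -0.42 and 0.25. The decoy TNFRSF10C, which also binds it and was low, had a wider interval of -0.34 to 1.39.

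TNFRSF1A had 105, 111 and 94.4 CPM in CD44 WT and 69.6, 87.6 and 91.5 CPM in CD44 KO (log2 fold change -0.32, SE 0.11, adjusted p = 0.0839), and LTBR had 119, 106 and 92.9 CPM against 82.2, 89.9 and 99.0 CPM (-0.23, SE 0.10, adjusted p = 0.171). TNFRSF1A alone of the pair did not overlap. CD40, the receptor of CD40LG, had 43.9, 38.5 and 35.7 CPM against 42.1, 47.9 and 47.3 CPM (0.22, SE 0.19, adjusted p = 0.529). TNFRSF1B had 39.1, 27.5 and 24.4 CPM against 38.0, 34.7 and 37.0 CPM (0.27, SE 0.17, adjusted p = 0.366), and RELT had 37.1, 29.4 and 30.4 CPM against 26.2, 29.6 and 27.9 CPM (-0.21, SE 0.13, adjusted p = 0.361).

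TNFRSF11A, called in Hs578T, was not called in MDA-MB-231, at 18.3, 19.1 and 18.8 CPM in CD44 WT and 18.1, 18.5 and 16.7 CPM in CD44 KO (log2 fold change -0.07, adjusted p = 0.806), although 12 of the 29 tested genes within 5 Mb of it were called higher there with a median of 0.56. FAS had 5.31, 5.11 and 4.72 CPM against 5.34, 6.14 and 7.999 CPM (0.35, adjusted p = 0.270). TNFRSF11B (0.31, adjusted p = 0.356), TNFRSF10C (0.52, adjusted p = 0.477) and TNFRSF25 (-0.24, adjusted p = 0.795) were low and not called, and TNFRSF8 and EDA2R had no count in any MDA-MB-231 library. The divergent transcript TNFRSF10A-DT, the single other row that passed, had 10.9, 9.08 and 11.1 CPM against 8.30, 8.69 and 7.60 CPM there (-0.33, adjusted p = 0.311).

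Whether the change from CD44 WT to CD44 KO populations differed between the lines was tested directly, as the log2 change in Hs578T minus that in MDA-MB-231. Of 28 members 5 were called, where 4.12% of all genes were (1.79% lower and 2.33% higher in Hs578T). NGFR differed most clearly (-3.13, SE 0.35, adjusted p = 4.12e-05), with changes in opposite directions. TNFSF12 (-2.19, SE 0.36, adjusted p = 0.00100), TNFSF15 (adjusted p = 0.00390, with no finite estimate because of its zeros) and TNFRSF11A (1.91, SE 0.30, adjusted p = 7.38e-04) had been called in Hs578T and not in MDA-MB-231, and TNFRSF19 (-1.47, SE 0.28, adjusted p = 0.00321) in MDA-MB-231 and not in Hs578T. The calls of TNFSF15 and TNFRSF19 were lost with some libraries left out, at adjusted p values up to 0.0138 and 0.0120. The difference was not called for CD70 (adjusted p = 0.110), TNFSF9 (0.0944), TNFSF18 (0.124) or FAS (0.189), so no difference between the lines was shown for these 4.

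Between CD44 WT cells of Hs578T and MDA-MB-231, 23 of the 28 members were called (12 higher and 11 lower in Hs578T), beside 61.5% of all genes (32.2% higher and 29.4% lower). TNFRSF8, with 689 counts in Hs578T and none in MDA-MB-231, was at least 211-fold higher in Hs578T, and EDA2R at least 50.2-fold. TNFRSF9 had 1286 against 2 counts, a ratio of 590 (95% counting interval 163 to 4877), and CD70 394 against 2, a ratio of 181 (49.7 to 1498). In the other direction TNFSF18 was at least 108-fold higher in MDA-MB-231. TNFRSF10A and TNFRSF10D had 1 count each in Hs578T against 1894 and 4675 in MDA-MB-231. Each member named in this paragraph passed the filter only through the line where it is high. The count of calls thus partly follows from the filter and is not read as a result about the family.

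Per length of exon, the order of receptor levels in CD44 WT Hs578T began with TNFRSF1A at 54.5 ± 0.398 RPKM, followed by TNFRSF10B at 32.0 ± 3.43, LTBR at 23.6 ± 1.04, TNFRSF12A at 23.1 ± 2.37 and TNFRSF21 at 19.1 ± 4.16 (mean ± SD, n = 3). The last 3 lay within 1 SD of a neighbour. In CD44 WT MDA-MB-231 it began with TNFRSF12A at 74.0 ± 7.74 RPKM, followed by TNFRSF21 at 40.5 ± 3.74, TNFRSF10D at 37.5 ± 5.08, TNFRSF10B at 35.5 ± 4.50 and TNFRSF1A at 25.8 ± 2.09, of which TNFRSF21, TNFRSF10D and TNFRSF10B overlapped in their spread. Among ligands TNFSF9 led in both lines, at 40.4 ± 10.1 RPKM in Hs578T and 9.52 ± 0.699 RPKM in MDA-MB-231. CD70 came second in Hs578T, at 6.54 ± 2.54 RPKM, and TNFSF12 in MDA-MB-231, at 5.50 ± 0.270 RPKM, with TNFSF18 at 4.26 ± 2.08 RPKM within its spread of it.

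The genes through which these receptors signal were examined as lists. Of 33 adaptors, kinases, ubiquitin enzymes and caspases of the receptor complex, all tested, 2 were called lower and 1 higher in CD44 KO Hs578T, where 7.51% of all genes were called (3.86% lower and 3.64% higher). RIPK3, the kinase of necroptosis, fell from 2.46 ± 0.759 to 0.679 ± 0.235 CPM (log2 fold change -1.85, SE 0.38, adjusted p = 0.00498), BIRC3, an inhibitor of apoptosis and ubiquitin ligase, from 6.95 ± 1.11 to 3.36 ± 0.713 CPM (-1.03, SE 0.23, adjusted p = 0.00656), and RBCK1, a subunit of the linear ubiquitin ligase, rose from 161 ± 10.2 to 284 ± 22.03 CPM (0.82, SE 0.11, adjusted p = 8.07e-05). In MDA-MB-231, where 4.62% of all genes were called, TRAF3 alone of the list was, from 45.3 ± 4.30 to 64.0 ± 2.39 CPM (0.50, SE 0.09, adjusted p = 0.00364). The counts of the 3 lists that follow stand beside the same shares. The list had a median of -0.05 in the Hs578T comparison and 0.01 in the MDA-MB-231 comparison.

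Of 9 NF-kappaB subunits and inhibitors, NFKB1 was called lower in Hs578T, from 51.1 ± 2.09 to 38.9 ± 1.01 CPM (log2 fold change -0.39, SE 0.09, adjusted p = 0.00685), and none in MDA-MB-231, where edgeR gave NFKB1 an adjusted p of 0.545. Of 15 tested genes known to be induced by TNF through NF-kappaB, CCL2, a monocyte chemokine, was called lower in both lines, from 5.39 ± 1.15 to 1.83 ± 0.463 CPM in Hs578T (-1.53, SE 0.31, adjusted p = 0.00371). In MDA-MB-231 it stood at 51.5 ± 17.8 against 3.65 ± 0.695 CPM (-3.85, SE 0.26, adjusted p = 2.54e-07). VCAM1, an adhesion molecule for leukocytes, was called higher in Hs578T, from 2.52 ± 1.75 to 11.1 ± 4.59 CPM (2.12, SE 0.45, adjusted p = 0.00911), and IL1B in MDA-MB-231, from 5.33 ± 2.06 to 21.4 ± 13.4 CPM (1.99, SE 0.39, adjusted p = 0.00453). In each line, 13 of the 15 were not called, and the list had medians of 0.57 and 0.28. The Hs578T median is the estimate of IL1B (SE 1.51), at 0.121 ± 0.142 against 0.185 ± 0.113 CPM. CXCL1, CXCL2, CXCL3, CXCL8, CSF2, PTGS2 and BCL2A1 also had means under 1 CPM in both Hs578T groups, so that median is not read as a rise.

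Of 7 genes for the shedding of ligands, with the ligand EDA beside them, ADAM17, the protease that releases TNF and several receptors, was called lower in MDA-MB-231, from 92.1 ± 14.1 to 61.8 ± 7.96 CPM (log2 fold change -0.57, SE 0.12, adjusted p = 0.00547). None was called in Hs578T, where ADAM17 had an adjusted p of 0.311 by edgeR. EDA, a ligand of EDAR, had 4.09 ± 0.735 CPM in CD44 WT and 3.91 ± 0.463 CPM in CD44 KO Hs578T. In MDA-MB-231 it had 0.287 ± 0.108 CPM in CD44 WT and 0.0565 ± 0.0978 CPM in CD44 KO.

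**Figure D4:**
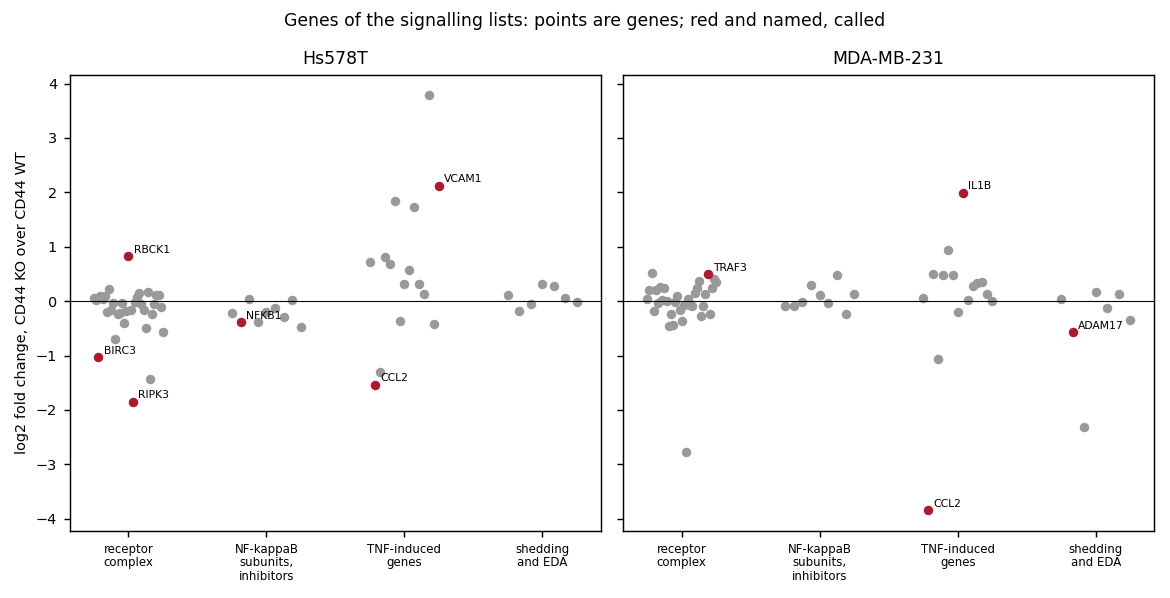
Log2 fold change after CD44 loss for each tested gene of the 4 signalling lists (points), in Hs578T (left) and MDA-MB-231 (right), red and named where called. Most genes lie near 0, and CCL2 is low in both panels, at -1.53 and -3.85.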

How the data were processed

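RNA of 12 libraries was sequenced as stranded, paired-end mRNA libraries. The authors aligned the reads with HISAT2 2.1.0 and deposited whole-number counts per gene, made with featureCounts 1.6.2 on GENCODE 28 (GRCh38) with strand and a minimum mapping quality of 10, per the file headers. Fragments within 2 genes or without a unique place were not counted, which lowers overlapping genes, and would lower genes copied in alternate contigs where these were aligned to. No count column was left without a group. Symbols were matched by gene ID, for 57754 of 58381 rows. Counts as deposited were tested with edgeR 4.0.16 in R 4.3.3 (TMM, 4 group means, all 12 libraries, legacy quasi-likelihood fit), called where the p adjusted by Benjamini-Hochberg was 0.01 or lower, after removing genes not above 1 CPM in at least 2 libraries or under 300 nt. The fit was tested on simulated data. DESeq2 1.42.0, other scalings and libraries left out were alternatives. Totals of 10257586 to 19725543 counts per library set the counting precision. The fold bounds use 3 counts over a group.

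All members that passed were named, with every library for those called or above 20 CPM in a group. The members, lists and tests were chosen with earlier results of these data known, and the list of TNF-induced genes had 18 of 19 symbols matched.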

Additional observations from a re-analysis of the deposited data

Results flagged for a closer look

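For 5 members the change after CD44 loss was not the same in the lines by the interaction term of the edgeR fit, given as the log2 change in Hs578T minus that in MDA-MB-231. NGFR was at -3.13 (adjusted p = 4.12e-05), the sum of a fall by 1.21 in Hs578T and a rise of 1.93 in MDA-MB-231. TNFSF12 was at -2.19 (adjusted p = 0.00100) and TNFRSF11A at 1.91 (adjusted p = 7.38e-04), each with a change near 0 in MDA-MB-231 (-0.02 and -0.07). TNFRSF19 was at -1.47 (adjusted p = 0.00321), from -0.24 in Hs578T and 1.24 in MDA-MB-231. TNFSF15 had a fitted -8.50 (adjusted p = 0.00390), a value set by the small count that edgeR adds to its zeros in CD44 KO Hs578T and no estimate of size.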

How the results depend on the processing

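Of 1020 values of members under the alternatives, 978 kept their side of the threshold, 30 lost and 12 gained a call, and none that was called changed direction. The values include members far from the threshold and fits without a library of the other line, which bear on a change mainly through the shared spread. The tally is therefore no measure of how firm the calls are. The 7 members called in Hs578T became 11 at an adjusted p of at most 0.05, with TNFRSF8, TNFRSF10B, TNFSF13B and EDA2R added. With 1 library left out they numbered between 4 (without CD44 KO replicate 2) and 9 (without CD44 WT replicate 3) in Hs578T, between 2 and 4 in MDA-MB-231, between 3 and 5 for the difference between the lines (3 without CD44 KO replicate 1 or 2 or CD44 WT replicate 1 of Hs578T) and between 22 and 23 between the CD44 WT lines. CD70, TNFSF9, TNFSF12 and TNFRSF11A in Hs578T and TNFSF18 and NGFR in MDA-MB-231 were called whichever library was left out.

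Correlations were taken between CD44 WT and CD44 KO libraries in their deviations from the group means. With the same replicate number they were -0.0957 to 0.0222 in Hs578T, and 0.00793 and 0.164 in MDA-MB-231. Unlike numbers in MDA-MB-231 gave -0.123 to 0.0285. Numbers in the library names set CD44 WT replicates 1, 2 and 3 of Hs578T next to CD44 KO replicates 2, 3 and 1. Those pairs had 0.0315, 0.101 and 0.134, and the rest of the Hs578T pairs 0.0264, -0.119 and -0.043. What the name numbers stand for is not stated. A fit with the replicate number as a block, without the unnumbered library, called 5 members in Hs578T, 0 in MDA-MB-231 and 2 for the difference. In Hs578T this block does not join libraries with neighbouring name numbers, so it does not test that pairing. In MDA-MB-231 the block does join such libraries, for replicates 1 and 3. With more terms and, in MDA-MB-231, fewer libraries, its lost calls cannot be told apart from lost precision. In MDA-MB-231 the block gave TNFSF18, NGFR and TNFRSF19 adjusted p values of 0.0133, 0.0219 and 0.0570. DESeq2 called 8, 4 and 5. A newer quasi-likelihood fit, chosen after seeing the data, called 7, 3 and 5. Depth limits the genes under 1 CPM, where a group holds few counts.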
